A study of Mus musculus with 12 samples.

Results

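Neutrophil and granule genes were followed through 12 thymus libraries: the calprotectin subunits S100a8 and S100a9, the specific-granule genes Ngp, Camp, Ltf and Lcn2, the azurophil-granule genes Elane and Mpo, and the receptor genes Cxcr2 and Csf3r. They are 10 of the 51734 gene symbols quantified, and they were named because their estimated counts in these libraries had already been seen. Their own levels are therefore given as a description, without a test.

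Neutrophils make their granules in sequence as they mature. Promyelocytes load azurophil, or primary, granules with myeloperoxidase and elastase. Myelocytes and metamyelocytes switch to specific, or secondary, granules with lactoferrin, lipocalin and cathelicidin, and late cells fill gelatinase granules and express receptors for exit from the marrow. Messenger RNA of early granule proteins is largely gone from mature neutrophils, whereas calprotectin RNA is abundant in late cells. A healthy thymus holds few granulocytes, so in thymus RNA these genes trace a minor cell population.

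Of the 12 libraries of polyadenylated RNA, 9 came from T cell leukemias in the thymus of mice with tetracycline-inducible expression of the interleukin-7 receptor alpha chain, Dox-induced per the titles, and 3 from healthy control thymus. The strain is given as F5 in both groups, and age, promoter and the cell type driving the inducible gene are not given in the labels. The labels number the libraries within a group without naming animals, so any spread between them may be partly technical. Fewer granulocytes and less RNA per granulocyte cannot be told apart in such bulk samples.

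The tumor libraries held 11617724 to 34769946 estimated counts and the control libraries 8133152 to 12019924. Il7r, the induced gene, measured 5.03 to 5.63 CPM in tumors 7 to 9 and 33.3 to 513 CPM in the first 6 tumors, against 2.92 ± 0.356 CPM (SD, n = 3) in the controls, where CPM is the count scaled by library total and trimmed-mean (TMM) factors. Libraries were set apart by a background over genes that thymocytes are not known to express. For 1449 olfactory and vomeronasal receptor genes, the median density in counts per kilobase of transcript was 0 to 3.61 for tumors 1 to 6, 12.1 to 21.4 for tumors 7 to 9, and 17.1 to 19.7 for the controls. A list of 10 T cell markers reached a sum of 1985 to 2806 CPM in the first 6 tumors and 75.6 to 153 CPM in the last 3, against 56.5 to 121 CPM in the controls. None of these markers exceeded the 99th percentile of the receptor genes in a control or in tumors 7 to 9, and 0 to 3 of the 10 exceeded the 95th percentile there, so T cells of the labelled tissue were hardly or not seen above that background. A difference between tumor and control therefore cannot be told apart in full from one in background, and each gene was read first against the receptor genes of its own library.

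The granulocyte trace was carried mainly by one tumor. In tumor 2 the 8 cytosolic and granule genes, leaving out the receptors, held 2595 estimated counts, 0.0119% of the library (95% Wilson interval 0.0114% to 0.0123%). The other tumors held 29 to 428 counts of the same genes and the controls 288 to 481. As a share of the library this was 0.000155% to 0.00368% in the other tumors and 0.00354% to 0.00400% in the controls. Of 90 gene and tumor pairs, 6 lay above the 99th percentile of receptor gene density in their library, namely S100a8 and S100a9 in tumors 2 and 4, and Ngp and Lcn2 in tumor 2. Of 30 gene and control pairs, 0 did. Against olfactory genes alone 4 pairs passed, all in tumor 2, and the calprotectin genes in tumor 4 did not. In tumor 2 this was 4 of the 10 genes, where 6.13% of all protein-coding genes passed the same mark. In tumor 4 it was 2 of the 10, where 11.2% of protein-coding genes passed. That share was 4.99%, 19.3%, 19.3% and 27.2% in tumors 1, 3, 5 and 6 and 0.566%, 0.502% and 0.47% in tumors 7 to 9, against 0.516%, 0.388% and 0.361% in controls 1 to 3. Few genes of any kind passed in the last 6 libraries. Since the genes were chosen on these levels, nothing is read from their counts against these shares.

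**Figure D1:**
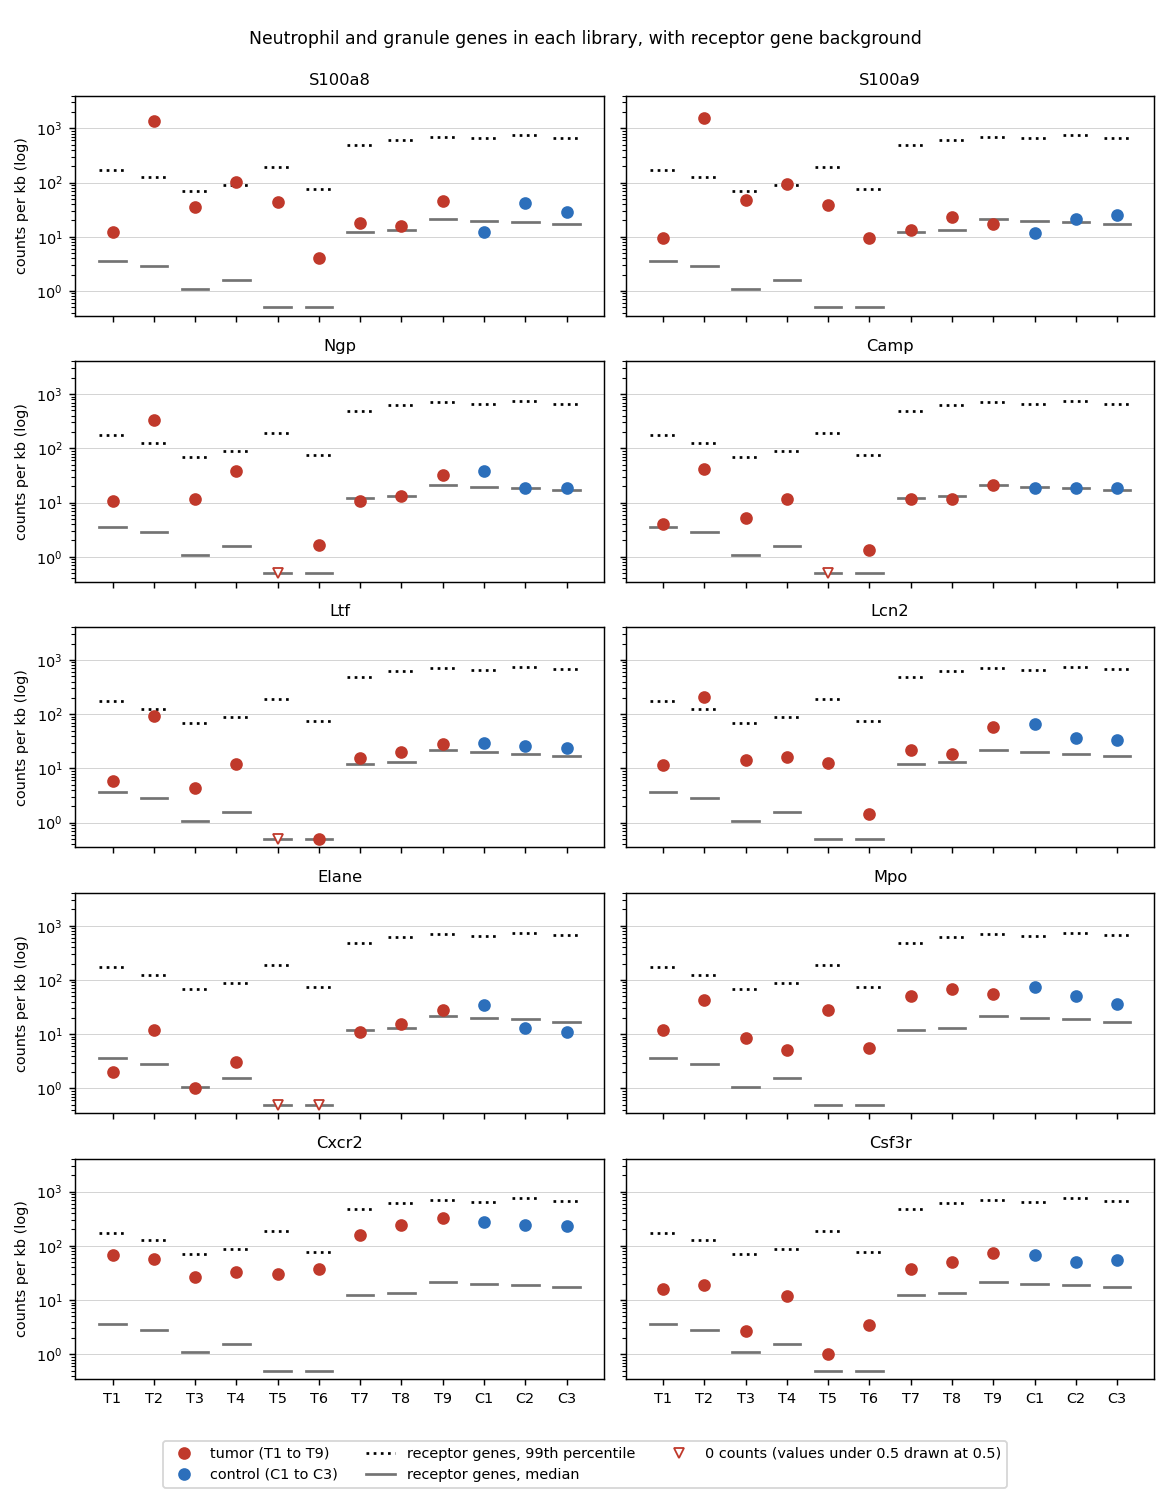
Each panel shows one gene as estimated counts per kilobase of its longest transcript (log axis) in tumors 1 to 9 (T1 to T9, red) and controls 1 to 3 (C1 to C3, blue). Short lines give the median (solid grey) and 99th percentile (dotted) of 1449 receptor genes in the same library, with values under 0.5 drawn at 0.5. S100a8 and S100a9 in tumor 2 reach 1359 and 1559 counts per kilobase, against a 99th percentile of 126.

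The calprotectin pair was the strongest signal of the 10. S100a8 and S100a9 encode calcium-binding proteins that pair up and make up much of the neutrophil cytosol. They lie close together on chromosome 3, S100a8 at chr3:90668978-90670035 on the plus strand and S100a9 at chr3:90692632-90695721 on the minus strand (GRCm38). S100a8 had 6, 677, 18, 51, 22, 2, 9, 8 and 23 counts in tumors 1 to 9, against 6, 21 and 14 in controls 1 to 3. S100a9 had 5, 809, 25, 48, 20, 5, 7, 12 and 9 counts in tumors 1 to 9, against 6, 11 and 13 in the controls. Tumor 2 was the highest library for both, tumor 4 the second highest, and the other 7 tumors, at 2 to 25 counts, partly overlapped the controls.

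Against the receptor genes the pair lay in a graded order among the tumors. S100a8 stood at 476 times the receptor median in tumor 2, 65.4 times in tumor 4 and 33.4 times in tumor 3. S100a9 stood at 546, 59.1 and 44.5 times in the same tumors. In tumor 6 the multiples were 13.0 and 31.2 but rested on 2 and 5 counts, and in tumor 5, whose receptor median was 0, S100a8 and S100a9 ranked above 95.7% and 94.7% of the receptor genes. Tumors 7 to 9 lay at 0.809 to 2.16 times the median for the pair, against 0.587 to 2.26 times in the controls. In those libraries neither gene could be seen above the background.

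The pair kept similar counts wherever it was high. S100a9 density was 1.15 times that of S100a8 in tumor 2, 1.33 times in tumor 3 and 0.903 times in tumor 4. As group means, S100a8 was at 11.2 ± 28.9 CPM in the tumors (SD, n = 9) and 0.510 ± 0.287 CPM in the controls (SD, n = 3), and S100a9 at 13.1 ± 34.7 and 0.375 ± 0.165 CPM. The edgeR log2 fold change, tumor over control, was 4.43 for S100a8 (SE 1.97) and 5.10 for S100a9 (SE 2.11). Both rest on tumor 2, since without it they were 1.57 and 2.01. On log2(TPM + 1) they were -0.45 and -0.20.

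Genes of the specific granules followed the pair at lower levels in tumor 2 and in part in tumor 4. In tumor 5, where S100a8 and S100a9 had 22 and 20 counts, Ngp, Camp and Ltf had 0 and Lcn2 had 17. Ngp, a cathelicidin-related granule protein of mouse neutrophils (chr9:110419747-110423012, plus strand), had 13, 411, 14, 46, 0, 2, 13, 16 and 40 counts in tumors 1 to 9, against 47, 23 and 23 in the controls. Only tumor 2 lay above all controls in raw counts, and tumor 4 lay beside control 1. By density Ngp stood at 118 times the receptor median in tumor 2 and 24.1 times in tumor 4, against 1.01 to 1.95 times in the controls.

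Lcn2 encodes lipocalin, which binds bacterial iron carriers (chr2:32384633-32388252, minus strand). It had 16, 282, 20, 22, 17, 2, 30, 25 and 79 counts in tumors 1 to 9, against 92, 50 and 46 in the controls. Tumor 2 was the one tumor above all 3 controls. It stood at 71.9 times the receptor median there and 10.2 to 13.4 times in tumors 3 and 4, against 1.95 to 3.40 times in the controls. Ltf encodes the iron-binding lactoferrin (chr9:111019271-111042767, plus strand). Its counts were 16, 254, 12, 33, 0, 1, 42, 55 and 78 in tumors 1 to 9, against 82, 72 and 66 in the controls, again with tumor 2 alone above every control. Its density in tumor 2, 92.6 counts per kilobase, exceeded 98.7% of the receptor genes and so fell just short of the 99th percentile.

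Camp, the precursor of the mouse cathelicidin peptide (chr9:109847379-109849617, minus strand), was the weakest of this group. It had 3, 32, 4, 9, 0, 1, 9, 9 and 16 counts in tumors 1 to 9, against 14 in each control. It exceeded 96.1% of the receptor genes in tumor 2 and 44.9% to 55.3% in the controls. Tumor and control means in CPM were 7.31 ± 17.4 and 1.11 ± 0.392 for Ngp, 5.57 ± 11.7 and 2.24 ± 0.698 for Lcn2, 5.35 ± 10.5 and 2.67 ± 0.0488 for Ltf, and 0.857 ± 1.29 and 0.513 ± 0.0514 for Camp (SD, n = 9 and 3). In all 4 the tumor SD exceeded the tumor mean.

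The log2 fold changes of this group had large standard errors. They were 2.69 for Ngp (SE 1.66), 1.29 for Lcn2 (SE 1.19), 0.98 for Ltf (SE 1.28) and 0.68 for Camp (SE 1.15). Without tumor 2 they were 0.43, -0.43, -0.51 and -0.25, so the sign of the last 3 rests on that tumor. With library totals in place of TMM factors the values were -0.05, -1.12, -1.35 and -1.51, beside a median of -1.83 over all genes, against -0.45 with TMM factors.

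The azurophil genes Elane and Mpo stayed below the 99th percentile of the receptor genes in every library. In tumor 2 Mpo stood at 15.1 times the receptor median, close to Camp at 14.8 times. Elane encodes neutrophil elastase (chr10:79886247-79888215, plus strand), and had 2, 12, 1, 3, 0, 0, 11, 15 and 28 counts in tumors 1 to 9, against 34, 13 and 11 in the controls. No tumor lay above control 1. In tumor 2 Elane density exceeded 85.6% of the receptor genes, at 4.27 times their median. Mpo encodes myeloperoxidase (chr11:87793581-87804413, plus strand), which makes hypochlorous acid in the granule. Its counts were 34, 118, 23, 14, 78, 16, 140, 188 and 155 in tumors 1 to 9, against 200, 139 and 101 in the controls. Tumors 2 and 7 to 9 overlapped the controls, and the other 5 tumors lay below them. Mpo overlaps the antisense gene Gm11505, and the labels do not say whether strand was used, so reads of the pair may not be separable.

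On the density scale Mpo exceeded 96.1% of the receptor genes in tumor 2, 93.0% in tumor 5 and 78.1% to 86.4% in the other tumors, against 80.0% to 85.3% in the controls. Elane averaged 0.502 ± 0.511 CPM in tumors and 0.682 ± 0.386 CPM in controls, and Mpo 5.46 ± 4.46 and 5.26 ± 1.28 CPM (SD, n = 9 and 3). Their log2 fold changes were -0.45 (SE 1.07) and 0.05 (SE 0.65), within their errors.

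The ratio between granule stages was taken within each library, without scaling between libraries. The mean density of Ngp, Camp, Ltf and Lcn2 was 169 counts per kilobase in tumor 2. That of the azurophil serine protease genes Elane, Prtn3 and Ctsg together with Mpo was 25.4, a ratio of 6.65. The ratio was 4.82 in tumor 4 and 2.86 in tumor 3. It was 0.437 to 1.04 in the other 6 tumors, against 0.793 to 0.985 in the controls. In tumors 4 and 3 it rests on few counts of Elane (3 and 1), Prtn3 (3 and 1) and Ctsg (5 and 2). The azurophil means there, 4.03 and 3.12 counts per kilobase, lay below the receptor gene means of 9.73 and 7.42. In the controls the specific-granule means were 23.7 to 38.4 and the azurophil means 24.1 to 43.1 counts per kilobase. Both lay below the receptor gene means of 48.5 to 56.1 there, as they did in tumors 7 to 9. The ratios of these libraries thus compare levels within the background and show no granule stage. The size of the ratio depends on the genes taken. With all 10 genes of the azurophil list it was 7.96 in tumor 2, 4.17 in tumor 4 and 1.34 in tumor 3, against 0.867 to 1.07 in the controls. With Elane and Mpo alone it was 6.13, 4.74 and 1.88, against 0.716 to 0.989 in the controls. In tumor 3, Cst7, a cysteine protease inhibitor of the list that lymphocytes also express, reached 38.5 counts per kilobase, above the specific-granule mean of 8.92 there. The specific-granule side was always the 4 genes described, which were chosen on these levels. The 7 other specific-granule and 8 other azurophil list genes summed to 59.9 and 29.9 CPM in tumor 2. These sums were 7.90 and 7.09 CPM in tumor 4, and 12.7 and 9.26 CPM in tumor 3. They were 11.64 and 14.02 CPM in control 1, and 12.47 and 11.29 CPM in control 3. Calprotectin density in tumor 2, at 1459 counts per kilobase, was above both granule stages.

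The tumor 2 levels were set against the other 11 libraries gene by gene, with tumor 2 singled out after these levels were seen. In CPM, S100a9 was 16.1 times, S100a8 12.7 times, Ngp 8.54 times, Ltf 7.35 times and Camp 3.40 times the next highest library, tumor 4. Lcn2 was 12.04 times control 1, Mpo 1.90 times tumor 7 and Elane 1.39 times control 1. These multiples depend on the scaling. Per library total, without TMM factors, S100a9 was 20.05, S100a8 12.9, Ngp 4.81, Lcn2 1.69 and Ltf 1.41 times the next library, while Camp, Mpo and Elane were at 0.851, 0.325 and 0.194 times the highest control. On TPM, S100a9 was 14.0, S100a8 7.76, Ngp 3.00 and Lcn2 1.05 times the next library, and Camp and Ltf were at 0.518 and 0.414 times the highest control. Mitochondrial transcripts took 66.7% of the counts of tumor 2 and 2.54% to 69.3% in the other tumors, against 0.0948% to 6.73% in the controls, and they enter every library total.

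Some other genes of the same stages were high in tumor 2 as well. The 8 lists of granulocyte genes held 73 genes beside the 10 described. In tumor 2, 11 of the 73 were at least 3 times as high as in any other library, where 0.131% of all genes tested were. The lists and tumor 2 were chosen with earlier results of these data known, so these shares are a description and no test. The median of the 73 in tumor 2 was 0.913 times the highest other library. By list it was 0.893 for azurophil, 1.02 for specific-granule and 2.04 for mature neutrophil genes. The lists as drawn up here need not match the granule that holds each product. Of the 11, 2 were among 8 in the azurophil list (Ctsg and Serpinb1a) and 2 among 7 in the specific-granule list (Chil3 and Hp). The gelatinase-granule list gave 1 of 7 (Mmp8) and the mature neutrophil list 6 of 16 (Retnlg, Wfdc21, Ifitm6, Anxa1, Clec4d and Clec4e). None of 11 receptor, 9 ligand, 9 transcription factor or 6 NADPH oxidase genes was among the 11. None of 15 macrophage and monocyte markers was 3 times as high either. Per library total the count fell to 1, Retnlg, and on TPM to 0. In CPM, tumor 2 was the highest library for 36 of the 73 and for 9 of the 10 genes described, where it was so for 5.73% of all genes. Per library total it was so for 6 of the 73 and 5 of the 10, and on TPM for 1 of the 73 and 4 of the 10.

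Retnlg, a resistin-like gene of mouse neutrophils, was chosen by its level relative to the receptor genes. It had 127 counts in tumor 2, 1 to 15 counts in the other tumors and 10 to 14 in the controls. In tumor 2 it ranked above 99.9% of the receptor genes, at 73.2 times their median. Chil3, a chitinase-like protein of granules and macrophages, was chosen in the same way and had 220 counts in tumor 2, 50.1 times the receptor median. Named after their values were seen, Hp, which encodes haptoglobin, had 134 counts in tumor 2, and the collagenase gene Mmp8 had 82. Ly6g, the surface marker often used to gate mouse neutrophils, had 12 counts in tumor 2, against 21 to 25 in the controls. By density this was 4.52 times the receptor median in tumor 2, against 1.13 to 1.42 times in the controls, and in CPM tumor 2 was the highest library, at 1.56, against 0.696 to 0.910 in the controls. Cebpe, a transcription factor of the switch to specific granules, had 6 counts in tumor 2, against 12 to 18 in the controls. In CPM it was at 0.781 in tumor 2, against 0.398 to 0.655 in the controls. Its highest CPM was in tumor 1, and tumor 2 stood at 0.522 times that level.

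**Figure D2:**
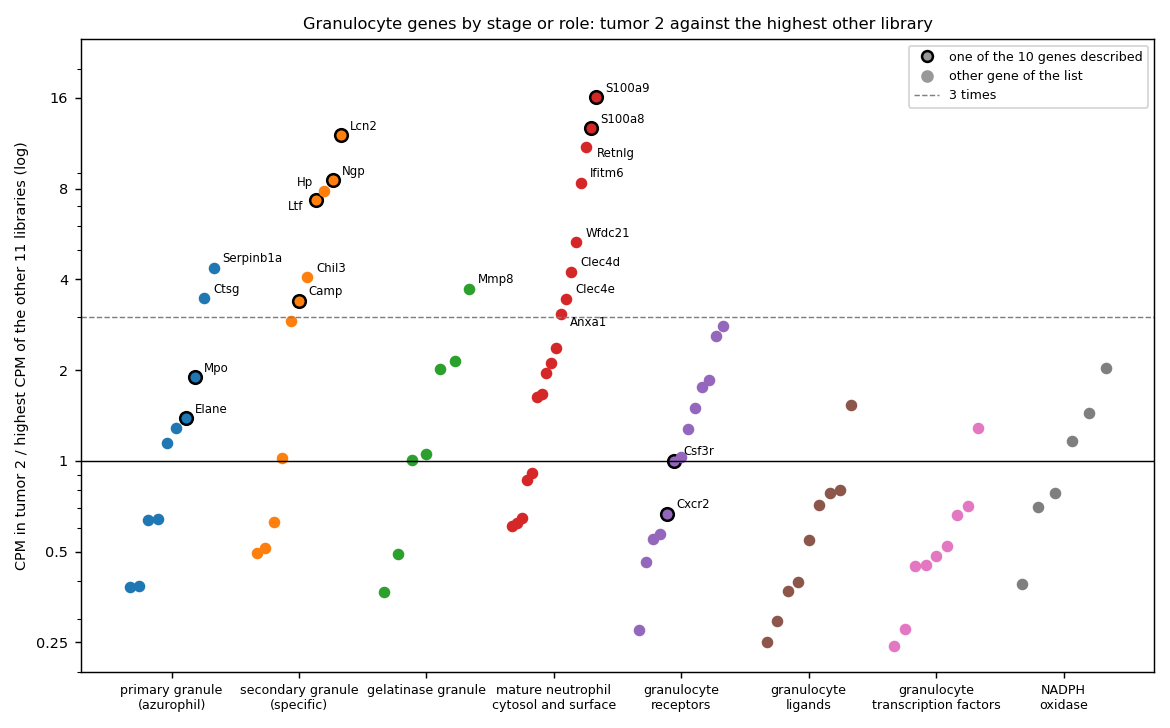
Each point is one gene of 8 granulocyte lists, placed by its CPM in tumor 2 divided by the highest CPM among the other 11 libraries (log axis), with black rims on the 10 genes described. Specific-granule and mature neutrophil lists reach from under 1 to 12.04 and 16.1, while ligands, transcription factors and oxidase genes stay under the dashed line at 3.

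Macrophage markers differed in which tumor was highest. In CPM, tumor 2 was highest for 6 of the 15, namely Adgre1, Csf1r, Ly6c2, Lyz2, Ctss and Cd14. C1qa, C1qb, C1qc, Cd68, Mrc1, Mertk and Timd4 were highest in tumor 1. The 15 macrophage and monocyte markers together held 258 CPM in tumor 2 and 30.9 to 175 CPM in the other 5 of tumors 1 to 6. They held 41.9 to 42.7 CPM in tumors 7 to 9, against 35.3 to 40.2 CPM in the controls. Lyz2, the lysozyme of macrophages and neutrophils, had 353, 857, 388, 123, 1079 and 112 counts in tumors 1 to 6 and 11, 40 and 28 in tumors 7 to 9, against 31, 23 and 25 in the controls. In CPM it was highest in tumor 2, at 112, and in raw counts in tumor 5, where Ngp, Camp, Ltf and Elane had 0. Of the 15 markers, Lyz2 passed the 99th percentile in each of tumors 1 to 6 and Ctss, a lysosomal protease, in tumors 2 to 5, and none did in tumors 7 to 9 or the controls. Cd14 was at 0 counts in tumors 4 to 6, Vsig4 in tumors 3 and 5, and Timd4 in tumors 3, 5 and 6. The part of macrophages in the calprotectin and Lcn2 signal was not tested. Among other cell types, 9 mast cell and basophil markers summed to 1.61 to 15.0 CPM in the first 6 tumors and 10.6 to 12.9 CPM in the last 3, against 10.8 to 12.5 CPM in the controls, and 7 eosinophil markers to 5.42 to 25.4 and 25.4 to 35.7 CPM, against 26.7 to 29.4 CPM. None of these passed the 99th percentile in any library.

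In raw counts the receptor genes gave another order of libraries. Cxcr2, the receptor for neutrophil-attracting chemokines (chr1:74153989-74161246, plus strand), had 204, 170, 79, 100, 92, 114, 486, 733 and 987 counts in tumors 1 to 9, against 855, 724 and 704 in the controls. Tumors 1 to 7 lay below every control, tumor 8 among the controls and tumor 9 above them. Csf3r, the receptor for granulocyte colony-stimulating factor (chr4:126024550-126044440, plus strand), had 57, 65, 10, 41, 3, 12, 129, 174 and 252 counts in tumors 1 to 9, against 240, 178 and 192 in the controls. Tumors 1 to 8 lay below every control and tumor 9 above them. In CPM, tumor 2 was at 0.669 times tumor 9 for Cxcr2, while for Csf3r both were at the same level, at 8.46 and 8.45 CPM.

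Cxcr2 kept nearly the same place among the olfactory and vomeronasal genes in every library. It exceeded 93.3% to 97.3% of them in the tumors and 96.1% to 96.5% in the controls, while Csf3r exceeded 60.0% to 90.5% and 83.2% to 85.1%. Relative to their mean density, Cxcr2 stood at 3.37 to 6.17 times in tumors other than tumor 5, which had 1.03, and at 4.46 to 5.00 times in the controls. Csf3r stood at 0.0339 times the mean in tumor 5 and up to 1.94 times in tumor 2, against 0.962 to 1.23 times in the controls. Cxcr2 averaged 18.9 ± 10.8 CPM in tumors and 27.7 ± 1.19 CPM in controls, and Csf3r 5.06 ± 3.41 and 7.40 ± 0.805 CPM (SD, n = 9 and 3). Their log2 fold changes were -0.55 for both (SE 0.59 and 0.78), close to the median of -0.45 over all genes.

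**Figure D3:**
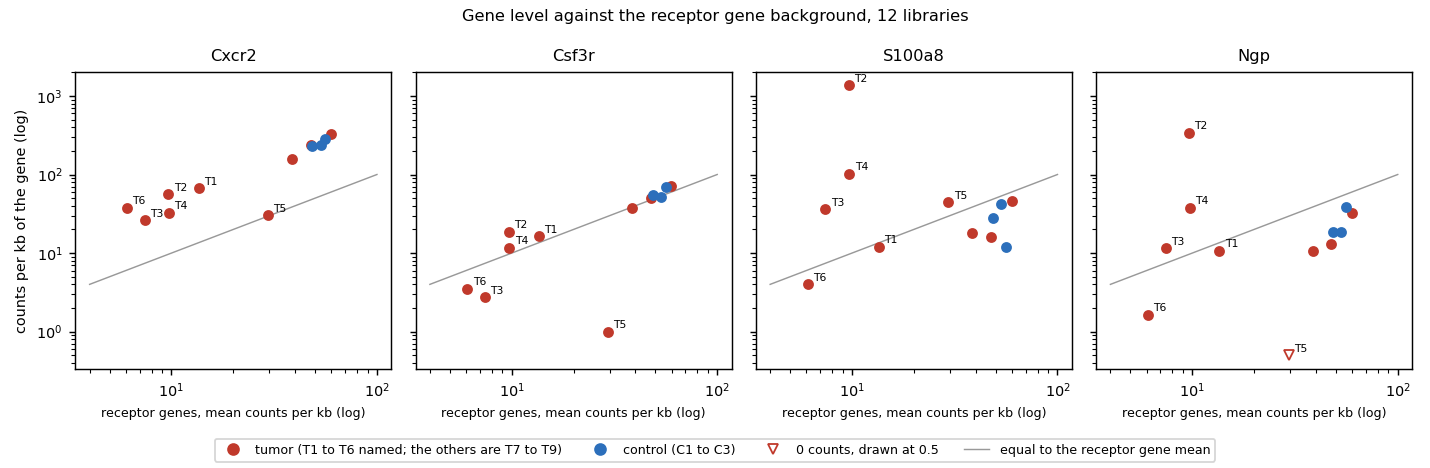
Counts per kilobase of 4 genes (log axis) are plotted against the mean counts per kilobase of the receptor genes in the same library (log axis), for tumors (red) and controls (blue), with a grey line where both are equal. Cxcr2 and Csf3r rise with the background, with tumor 5 low for its background, while S100a8 and Ngp in tumor 2 stand far above it.

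Transcript forms of Lcn2 set tumor 2 apart from the high-background libraries without any scaling. Lcn2 has 6 quantified transcripts, of which Lcn2-201 is one of the coding forms and 3 are annotated with a retained intron. Lcn2-201 took 98.5% of the gene's 282 counts in tumor 2 (95% Wilson interval 96.4% to 99.4%). It took 0 of 134 counts in tumors 7 to 9 together, which by the limit of 3 counts allows up to 2.24%, against 4.04% of 188 counts (2.17% to 8.17%) in the controls together. The retained-intron forms took 1.53% in tumor 2, against 46.3% to 58.4% in the controls. In tumors 3 and 4 Lcn2-201 took 51.8% and 47.1%, on 20 and 22 counts, and in tumors 1 and 5 it took 0 of 16 and 0 of 17, which by the same limit allows up to 18.8% and 17.6%.

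S100a8 showed a like split, on fewer counts outside tumor 2. S100a8-201 took 99.7% of 677 counts in tumor 2, 89.9% of 51 in tumor 4, and all 18 and 22 counts in tumors 3 and 5. It took 55.2% of 40 counts in tumors 7 to 9 (39.8% to 69.3%), against 46.8% of 41 in the controls (32.1% to 61.3%). Ltf-201 took 66.4% of 254 counts in tumor 2 (60.5% to 72.1%), against 37.7% of 220 in the controls (31.6% to 44.3%). The retained-intron forms of Ltf took 28.9% in tumor 2, within the 19.6% to 41.3% of the controls. S100a9 went the other way, with S100a9-201 at 79.5% of 809 counts in tumor 2, against all 30 in the controls. The rest fell on S100a9-202, also a coding form. Csf3r-201 took 87.7% of 65 counts in tumor 2 and 90.3% of 188 in tumors 1 to 6, against 64.5% of 611 in the controls. Mpo-203 took 94.3% in tumor 2 and 94.0% in tumors 1 to 6, against 79.7% in the controls. Cxcr2-202 took nearly all counts in every library. The intervals given cover counting error only, and kallisto's division of shared reads adds to it.

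**Figure D4:**
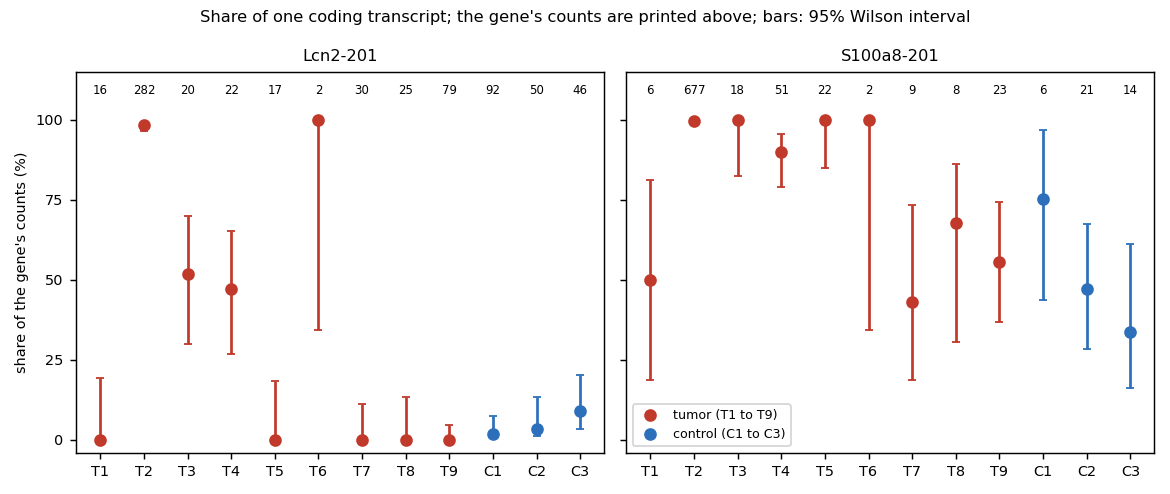
Points give the percentage of the gene's estimated counts assigned to Lcn2-201 (left) and S100a8-201 (right) in tumors (red) and controls (blue), with 95% Wilson intervals and the gene's counts printed above. Lcn2-201 takes 98.5% in tumor 2 and 1.81% to 9.06% in the controls.

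Stretches upstream of the 4 specific-granule genes and S100a9 are shown because C/EBP factors, which switch on late granule genes, bind motifs of the form TTNNGCAA. They are compared with Elane, an early granule gene. Sequences are from RefSeq on GRCm38.p6, on the gene's own strand, and stop before the annotated transcript. Capitals mark TTNNGCAA on either strand and GAGGAA, a core bound by PU.1, on either strand. These are chr3:90695722-90695971 (minus strand) for S100a9, chr9:110419558-110419746 (plus) for Ngp, chr9:111019042-111019270 (plus) for Ltf, chr9:109849618-109849706 (minus) for Camp and chr10:79886062-79886246 (plus) for Elane, and the motif with its flanks at chr2:32387938-32387965 (minus) for Lcn2, which lies inside a longer annotated form.
S100a9: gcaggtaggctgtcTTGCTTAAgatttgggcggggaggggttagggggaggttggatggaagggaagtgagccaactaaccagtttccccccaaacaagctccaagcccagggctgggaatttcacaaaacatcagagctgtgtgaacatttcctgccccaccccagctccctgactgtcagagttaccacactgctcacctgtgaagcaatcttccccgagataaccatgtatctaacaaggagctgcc
Ngp: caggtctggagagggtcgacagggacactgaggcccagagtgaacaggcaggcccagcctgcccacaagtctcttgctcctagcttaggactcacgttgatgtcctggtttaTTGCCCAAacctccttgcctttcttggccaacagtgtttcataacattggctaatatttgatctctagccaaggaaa
Ltf: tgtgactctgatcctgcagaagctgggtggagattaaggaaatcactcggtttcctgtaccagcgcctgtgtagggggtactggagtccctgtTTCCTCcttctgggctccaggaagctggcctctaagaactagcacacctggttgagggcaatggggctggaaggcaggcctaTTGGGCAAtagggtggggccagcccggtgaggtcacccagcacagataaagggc
Camp: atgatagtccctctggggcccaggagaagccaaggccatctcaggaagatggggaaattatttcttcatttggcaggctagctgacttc
Lcn2: gcccttcctgTTGCTCAAccttgcacag
Elane: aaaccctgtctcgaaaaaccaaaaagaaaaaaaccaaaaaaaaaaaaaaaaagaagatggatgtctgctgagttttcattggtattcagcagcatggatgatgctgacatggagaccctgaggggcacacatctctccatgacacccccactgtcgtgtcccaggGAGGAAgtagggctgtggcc

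Over the 250 bases before each RefSeq start, TTNNGCAA was present in 4 of the 10 genes, S100a9, Ngp, Ltf and Lcn2, and in 9.56% of 32851 promoter windows of the same length. GAGGAA was present in 7 of 10 and in 23.3% of all windows, and TATAAA in 1 of 10, S100a8, and in 12.4%. The 4 genes with TTNNGCAA were among the 6 that in CPM reached at least 3 times the next library in tumor 2. The other 2 were S100a8 and Camp. The 10 genes were chosen on these levels, and the set of 6 depends on the scaling. Per library total S100a8, S100a9 and Ngp reached 3 times, and on TPM S100a8 and S100a9, so nothing is read from the overlap. A match of letters is a description and does not show that a factor binds.

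Likeness to S100a8 over the 9 tumors was highest for S100a9, with a Pearson correlation of log2(CPM + 1) of 0.994 among 12596 genes compared. Anxa1, an anti-inflammatory annexin, had 0.973, Ngp 0.972, Rundc3b 0.966 and Il1b, the interleukin-1 beta gene, 0.963. For Ngp the closest were Il1b at 0.987, S100a8 at 0.972, Lcn2 at 0.964, S100a9 at 0.959 and the collagenase Mmp8 at 0.952. Mpo was most like Anxa3 at 0.9496, Frk at 0.929, Dsg2 at 0.922, Gda at 0.915 and Olr1 at 0.913, none of them a granule gene of the lists. Without tumor 2, over 8 tumors, these correlations were 0.793 to 0.964 for S100a8, 0.798 to 0.951 for Ngp and 0.851 to 0.928 for Mpo. The points share library depth and background, and the values carry no test.

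For the granulocyte list genes other than the 10, the tumor and control groups were compared by edgeR's quasi-likelihood test with Benjamini-Hochberg adjustment over 40484 genes. Of 72 tested, 0 were higher and 0 lower, where 0% and 0.00494% of all genes were called higher and lower. At an unadjusted p below 0.05 there were 7 of the 72, where 18% of all genes passed. DESeq2 called 5 of the 72 higher and 1 lower, where 9.96% and 0.126% of all genes were. The median log2 fold change of the 72 was -0.18, against -0.45 over all genes.

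Without tumors 7 to 9, 6 of the 72 were higher and 4 lower, where 19.6% and 20.3% of 38522 genes were. The higher ones included the receptor Cxcr4 and the selectin ligand Selplg, which T cells also carry, the transcription factors Gfi1 and Runx1, and the oxidase subunit Rac2. The lower ones included the chemokine ligands Cxcl3 and Cxcl5 and the surface gene Cd33. Of the 10 T cell markers, 9 were higher in the same fit. No gene of the azurophil, specific-granule or gelatinase-granule lists was among the called ones. Tumors 7 to 9 against the controls gave 0 of 72 in each direction by edgeR, where 0.0247% of 36420 genes were called each way. At an unadjusted p below 0.05 there were 6 of 72, where 9.04% of all genes passed. DESeq2 was not run on those 6 libraries.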

How the data were processed

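The authors deposited, per the file headers, one kallisto table per library with an estimated count and a TPM value for each transcript, beside its length and effective length. Per the submitters' processing notes, kallisto, FastQC and the build mm10 were used, with no version or annotation release stated there. Estimated counts were summed by gene symbol and rounded, and 40484 symbols passed filterByExpr in edgeR 4.0.16 (R 4.3.3) with TMM factors. Tumors were compared with controls by the quasi-likelihood F test with Benjamini-Hochberg adjusted p below 0.05. DESeq2 1.42.0 and limma 3.58.1 on log2(TPM + 1), with a pseudocount of 1, were alternatives. The edgeR steps were tested on simulated data.

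Density is estimated counts per kilobase of the longest listed transcript, set against 1124 Olfr and 325 Vmn protein-coding genes of the same library. In tumors 1 count stood for 0.0335 to 0.136 CPM and in controls for 0.0331 to 0.0405 CPM. No 2 libraries of a group agreed within sampling noise. Positions are from GENCODE M21, which matched 10 of 10 genes. RefSeq promoters also matched 10 of 10. Reads shared by near-identical transcripts are divided by kallisto, so single values of overlapping genes are uncertain.

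The genes and lists were chosen with earlier results of these data known. Beside the 10 genes, the rule for naming took 3 genes per list by density over the receptor median and the 5 most similar genes of S100a8, Ngp and Mpo. Other genes were named after their values were seen. Some genes of the lists are counted but not reported by name here.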

Additional observations from a re-analysis of the deposited data

Results flagged for a closer look

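In 7 of the 10 genes the highest CPM of the 9 tumors, always tumor 2, stood apart from the rest by more than Dixon's 95% critical value of 0.493 for the gap divided by the range. Chance alone marks about 1 in 20 groups if values are normally distributed, which was not shown for these untransformed CPM values. The 10 genes also share their libraries and were chosen with these levels known, so the values describe tumor 2 and test nothing. Per library total, tumor 2 was not the highest library for Camp, at 0.851 times the highest library, or for Mpo, at 0.325 times it. S100a9 had 105 CPM in tumor 2 with a gap of 0.941 of the range, S100a8 had 88.1 CPM with 0.922, and Lcn2 had 36.7 CPM with 0.922. Ngp had 53.5 CPM with 0.883, Ltf had 33.1 CPM with 0.864, Camp had 4.17 CPM with 0.706, and Mpo had 15.4 CPM with 0.507. Elane, with a gap of 0.399, and the receptors Cxcr2 and Csf3r did not pass.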

How the results depend on the processing

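Calls over all genes depended on the tool and on tumors 7 to 9, while edgeR called 0 higher and 2 lower. With DESeq2 these were 4031 and 51, and on log2(TPM + 1) with limma 125 and 32091. The stricter filter left 0 lower. Without tumors 7 to 9 there were 7562 and 7820, and tumors 7 to 9 against controls gave 9 and 9. Leaving out 1 library gave 0 higher throughout and 0 to 3 lower, with 0 lower without control 2 or 3 or tumor 1, 2, 4 or 7. Of the granulocyte list genes, DESeq2 called 5 higher and 1 lower, limma 63 lower, and edgeR without tumors 7 to 9 called 6 higher and 4 lower, against 0 and 0, which also held when any 1 library was left out.

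The labels share the numbers 1 to 3 between groups, but correlations of -0.03, 0.07 and -0.03 between same-numbered libraries do not pair them. With the replicate block over tumors 1 to 3 and controls 1 to 3, 8085 genes were higher and 1824 lower, with 14 and 1 list genes, against 8709 and 3566 genes in these 6 libraries without the block.

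Log2 fold changes of the 10 genes moved with the scaling. In the order S100a8, S100a9, Ngp, Camp, Ltf, Lcn2, Elane, Mpo, Cxcr2 and Csf3r, library totals gave 1.45, 2.10, -0.048, -1.51, -1.35, -1.12, -1.80, -1.53, -1.86 and -1.94. On log2(TPM + 1) the same order gave -0.45, -0.20, -0.81, -1.02, -2.33, -1.63, -1.01, -1.94, -2.66 and -1.90. DESeq2 gave 0.96 for S100a8, 1.37 for S100a9, -0.0493 for Ngp, -0.76 for Ltf and -0.71 for Lcn2. Tumors 7 to 9 against controls gave 0.11 for S100a8, 0.10 for S100a9, -0.25 for Ngp, -0.11 for Camp, -0.30 for Lcn2 and 0.11 for Elane, and Elane had -1.28 without tumors 7 to 9. Leaving out 1 library gave 1.57 to 4.60 for S100a8, 2.01 to 5.27 for S100a9, 0.43 to 2.87 for Ngp, -0.25 to 0.85 for Camp, -0.51 to 1.16 for Ltf, -0.43 to 1.46 for Lcn2, -0.86 to -0.11 for Elane, -0.31 to 0.19 for Mpo, -0.90 to -0.41 for Cxcr2 and -0.91 to -0.38 for Csf3r. The cause was not tested.

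Pairs above the receptor mark numbered 21 in tumors and 3 in controls at the 95th percentile, 25 and 3 against Vmn genes only, and 4 and 0 against Olfr genes only, beside 6 and 0. Leaving out 1 library gave 2 to 6 in tumors and 0 in controls, with 2 without tumor 2. At the 95th percentile and against Vmn genes only, all 3 control pairs were Cxcr2. Cxcr2 also passed in every tumor against Vmn genes, and in every tumor but tumor 5 at the 95th percentile. As alternatives added after seeing the data, the 11 granulocyte list genes at 3 times any other library in tumor 2 became 1 with library totals and 0 on TPM. Depth limits Camp and Elane most, at 32 and 12 counts in tumor 2. The background of tumors 7 to 9 and of the controls limits what can be seen of any of the 10 genes there.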

Other observations

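In tumor 2, 53 of the 40484 tested genes were at least 3 times as high as in any other library in CPM, and 36 of them stood in none of the granulocyte lists, 24 of these being protein-coding. Named after their values were seen, Saa3, an acute-phase serum amyloid gene, had 1155 counts in tumor 2, and Cfb, a complement factor, had 117. Cxcl13, a chemokine that attracts B cells, had 300 counts and was 4.80 times as high as in the next library. Il2ra, the interleukin-2 receptor alpha chain, had 545 counts and was 3.27 times as high. Bst1, a surface enzyme of myeloid and stromal cells, had 227 counts, and Rab44 had 261. Per library total only 4 of the 53, namely S100a8, S100a9, Ngp and Retnlg, were 3 times as high as any other library.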
